A study of Rattus norvegicus with 2 samples.

Results

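Collagen chain genes were examined in cultured heart cells of newborn rats, prepared as ventricular cardiomyocytes. The members are all genes of the deposited table whose symbol has the form of a collagen chain (Col, a type number, the letter a and a chain number), and 26 of 16846 gene symbols met this rule. Cells came from ventricles of rats at postnatal day 0, were freed of quickly attaching cells by 2 h on uncoated plastic, and had a purity above 90% according to the submitters. The control library was made from cells that one label calls transfected with an empty adeno-associated virus (AAV) and another calls mock-transduced. The anti-miR library was made from cells carrying AAV of serotype 2/9 with short hairpin RNAs against miR-99/100 and let-7, 7 days after transduction. The control library is from day 7 as well. Each group has 1 library, so the spread within a group could not be estimated, and neither the number of animals nor how cells were pooled is stated. Strand-specific poly(A) RNA gave 16031780 reads on genes for the control and 14815846 for the anti-miR library. Where 2 values of a quantity stand together, the control comes first.

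Collagens are secreted proteins in which 3 chains wind into a triple helix. Fibrillar collagens assemble into the banded fibrils that give tissue its tensile strength. Network collagens form sheets such as the basement membrane around heart muscle cells and vessels, beaded collagen VI forms microfilaments near cells, and FACIT collagens (fibril-associated collagens with interrupted triple helices) sit on fibril surfaces. In the heart most fibrillar collagen is made by fibroblasts, and its build-up is the hallmark of fibrosis. The comparison of the libraries asks how inhibition of both miRNA families alters transcript levels.

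The miRNAs to be inhibited fall into 2 seed groups, shown because the seed decides which transcripts a miRNA can pair with. Mature sequences are from RefSeq (GRCr8), written 5′ to 3′ with the seed, bases 2 to 8, in capitals.
let-7a: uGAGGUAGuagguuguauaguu
let-7c: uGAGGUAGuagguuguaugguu
miR-99b: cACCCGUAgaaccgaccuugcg
miR-100: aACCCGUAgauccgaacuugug
All 9 let-7 family sequences read, let-7a to let-7i and miR-98 among them, share the seed GAGGUAG, which pairs with CUACCUC in a transcript. The seed of miR-99b and miR-100 is ACCCGUA, which pairs with UACGGGU. Poly(A) libraries do not measure mature miRNAs, so the inhibition itself could not be read. Of 14 hairpin genes of these families, 9 had 0 reads in both libraries and no value exceeded 13 reads.

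Levels between genes were compared per length, as reads per kilobase of transcript per 1000000 reads on genes (RPKM), and levels of 1 gene between libraries as reads per 1000000 (RPM). Ratios are anti-miR over control and carry an exact 95% counting interval, which covers counting error only. Log2 ratios were taken after adding 0.1 RPM to both values. Reads were counted over exons, and positions are the whole-gene spans of the deposited table on build rn4. The 22 members whose mean reached 1 RPM are described one by one. Of the other 4, Col6a4, Col9a1 and Col23a1 had 0 reads in both libraries. A limit of 3 reads is 0.187 and 0.202 RPM, and the exact Poisson interval reaches 0.230 and 0.249 RPM. Col13a1, a transmembrane collagen, had 7 and 0 reads. Its control value is 2.16 times a limit of 3 reads in the anti-miR library, if the 7 control reads are taken as exact. Counting error in both libraries allows a ratio of up to 0.751. Other chain genes, such as the partners Col4a2, Col6a1, Col6a3 and Col8a2, have no entry under these symbols in the deposited table. Their levels are therefore unknown.

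The identity of the cultures bears on what the collagen values describe. Fibroblast markers (10 genes) summed to 8876 and 9459 RPM, with the defining marker Pdgfra at 211 and 217. Cardiomyocyte markers (8 measured genes) summed to 241 and 272 RPM. Of the defining cardiomyocyte genes, the troponin gene Tnnt2 had 147 and 161 RPM, and Tnni3 had 0 and 5 reads. Among the others, Actc1 had 77.0 and 88.8 RPM, and Myh7 had 99 and 171 reads. Reads were 0 and 23 for Myh6, 0 and 20 for Ryr2, 30 and 5 for Myl2, and 135 and 100 for Pln. Macrophage markers summed to 6109 and 6747 RPM, but without Lyz2 to 3172 and 2809. The defining macrophage marker Csf1r had 674 and 748 RPM, a ratio of 1.11 (1.08 to 1.14). Of the 8 macrophage markers, 3 had log2 ratios above 0 (Lyz2, Cd14 and Csf1r) and 5 below, with a median of −0.23 over all 8. Smooth muscle and pericyte markers came to 2782 and 2689 RPM and epicardial markers to 143 and 147. Endothelial markers came to 41.0 and 64.3 RPM, but without Flt1 to 16.3 and 19.4. The endothelial genes differed in direction, with 0 and 50 reads for Pecam1, 47 and 3 for Vwf, and 0 and 1 for the defining marker Cdh5. These levels go against the stated cardiomyocyte purity for the cultures as sampled, and the collagen values are those of a mixed culture. In a culture of mixed cells, fewer cells of a type and less RNA per cell cannot be told apart.

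Collagen transcripts held a large and nearly equal share of both libraries. The 26 genes took 11.29% of control reads (exact 95% interval 11.28 to 11.31) and 11.46% of anti-miR reads (11.45 to 11.48), a ratio of 1.02. Col1a1, Col3a1 and Col1a2 alone made up 85.2% and 85.0% of the collagen reads, and 10 members stood among the 100 genes with most reads in each library. Without those 3 genes, the sum was 16686 and 17181 RPM.

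**Figure D1:**
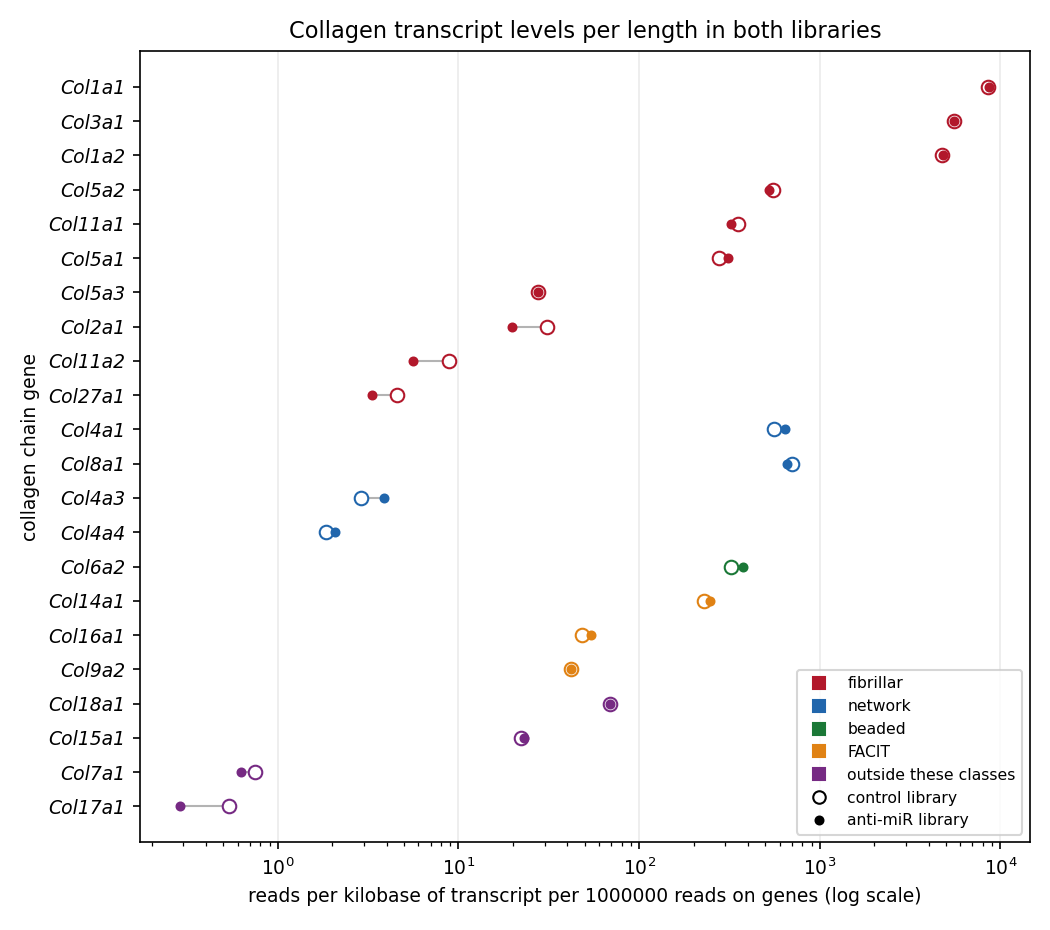
Level of each of the 22 collagen genes whose mean reached 1 RPM, in reads per kilobase per 1000000 reads on a log axis. Open circles are the control library and filled circles the anti-miR library, 1 library each, coloured by collagen class. Col1a1 leads at 8512 and 8676, and the largest gaps are seen for Col2a1, Col11a2 and Col17a1, each lower in the anti-miR library.

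By a rule of 1.5-fold, no collagen gene of the 22 was higher in the anti-miR library and 3 were lower, Col2a1, Col11a2 and Col17a1. Of all 10365 genes at this floor, 10.8% were higher and 8.56% lower, beside 0 and 13.6% of the members. By a rule of 2-fold, 4.85% of all genes were higher and 3.56% lower, and 0 members in either direction. The members lie mostly at high levels, where ratios scatter less. Among the 1793 genes of 100 RPM or more, 0.167% were higher and 0.781% lower, against 0 and 1 of the 16 members there. In the band from 10 to 100 RPM, 6.97% of genes were higher and 4.44% lower, against 0 and 1 of 3 members. From 1 to 10 RPM, 28.5% were higher and 24.7% lower, against 0 and 1 of 3 members. The median log2 ratio of the 22 members was 0.0054, beside 0.027 over all genes (−0.020 and 0.00088 when scaled by the median of gene ratios), and 12 members lay above 0 and 10 below.

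**Figure D2:**
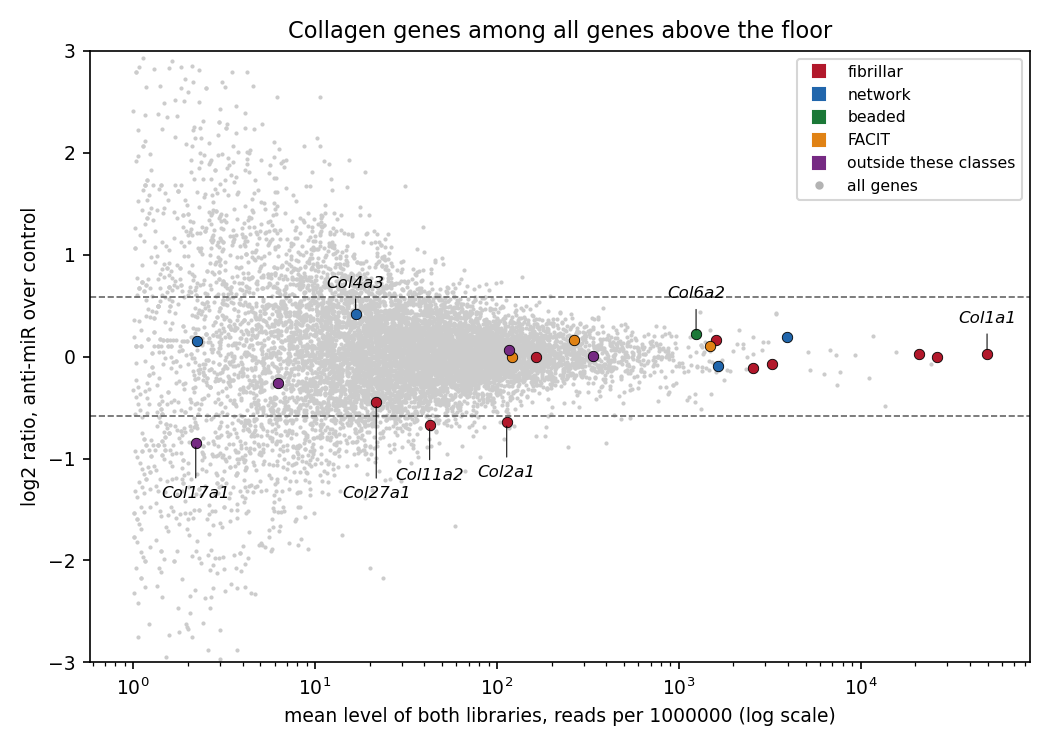
Log2 ratio, anti-miR over control, against the mean level in reads per 1000000 on a log axis, for all 10365 genes above the floor (grey) and the 22 collagen genes (coloured by class). Dashed lines mark 1.5-fold, and 110 genes lie beyond the plotted range of 3 log2 units. Col2a1, Col11a2 and Col17a1 lie below the lower dashed line, and Col1a1, the most abundant, lies close to 0.

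The major fibrillar chains had almost equal levels in both libraries. Col1a1 (chromosome 10, 83622438 to 83639368), encoding the alpha 1 chain of type I collagen, the main tensile fibril of the heart, had 49138 and 50088 RPM. Its ratio was 1.019 (counting interval 1.016 to 1.023), and it had more reads than any other gene in both libraries. Col1a2 (chromosome 4, 29393645 to 29428572), the alpha 2 chain of the same collagen, had 20858 and 21211 RPM, a ratio of 1.017 (1.012 to 1.022). Col3a1 (chromosome 9, 44281582 to 44317831), whose type III fibrils accompany type I, had 26226 and 26168 RPM, a ratio of 0.998 (0.993 to 1.002). Per length, these genes stood at 8512, 4729 and 5561 RPKM in the control, in the order Col1a1, Col1a2 and Col3a1. The next fibrillar chain, Col5a2, was at 552 RPKM.

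Chains of types V and XI enter the core of type I fibrils and limit their diameter. The 3 type V chains and Col11a1 lay within 1.5-fold and differed in both directions. Col5a1 (chromosome 3, 6826169 to 6971054) had 1518 and 1697 RPM, a ratio of 1.12 (1.10 to 1.14). Col5a2 (chromosome 9, 44374113 to 44525086) had 3326 and 3165 RPM, a ratio of 0.952 (0.940 to 0.964). Col5a2 lies 56281 bases from Col3a1 on the opposite strand, and no other gene of the table overlaps either of them. The minor chain Col5a3 had 164 RPM in both libraries, a ratio of 0.998 (0.944 to 1.06). Col11a1 (chromosome 2, 209996467 to 210193800), a chain best known from cartilage, had 2668 and 2463 RPM, a ratio of 0.923 (0.910 to 0.936). At 351 and 324 RPKM its level per length was near that of Col5a1, which had 277 and 310.

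The lowest ratios among fibrillar genes belonged to chains typical of cartilage. Col2a1 (chromosome 7, 136679219 to 136707976), encoding the chain of type II collagen, the main fibril of cartilage, had 2215 and 1312 reads. These are 138 RPM (exact Poisson interval 132 to 144) and 88.6 RPM (83.8 to 93.5), a ratio of 0.641 (0.598 to 0.687). Col11a2 (chromosome 20, 4924452 to 4953310), which joins type II fibrils as a type XI chain, had 841 and 489 reads. At 52.5 RPM (49.0 to 56.1) and 33.0 RPM (30.1 to 36.1) its ratio was 0.629 (0.562 to 0.704). Col27a1 (chromosome 5, 80198078 to 80316354), a fibrillar chain of cartilage and developing tissue, had 402 and 272 reads, or 25.1 and 18.4 RPM. Its ratio of 0.732 (0.625 to 0.856) lay inside 1.5-fold, and the hairpin gene Mir455, which overlaps it on the same strand, had 0 reads.

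Other cartilage genes did not share one direction. Col9a2, a FACIT chain that covers type II fibrils, had 122 RPM in both libraries, a ratio of 1.0 (0.938 to 1.07). On a list of 14 cartilage gene symbols outside the collagens, drawn up after the low Col2a1 value was seen, 9 were measured. Their sum was 130 and 127 RPM, and 4 of them had 0 reads in both, among them Matn1 and Chad. The defining proteoglycan gene Acan had 103 and 94.2 RPM, a ratio of 0.918 (0.854 to 0.985). Epyc had 23.5 and 27.1 RPM, Hapln1 had 28 and 16 reads, and Sox6 had 32 and 58. Hapln1 and Sox6 lie between 1 and 10 RPM, where 28.5% of all genes were at least 1.5-fold higher and 24.7% lower. Itga10, an integrin gene of cartilage cells kept on the collagen assembly list, lies in this band too. Its anti-miR level was only 0.233 of the control level (counting interval 0.141 to 0.368). The part of cartilage-like cells in the values of Col2a1 and Col11a2 was not tested.

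Over the 10 fibrillar members, 7 had a log2 ratio below 0 and 3 above, and the median was −0.037. Reads of the class are mostly those of types I and III, and the summed level was 10.41% of control reads (10.40 to 10.43) and 10.51% of anti-miR reads (10.49 to 10.53), a ratio of 1.009 (1.007 to 1.012). Without Col1a1 the ratio was 1.001 (0.998 to 1.004). With Col2a1 and Col11a2 left out, the fibrillar median was −0.0031.

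**Figure D3:**
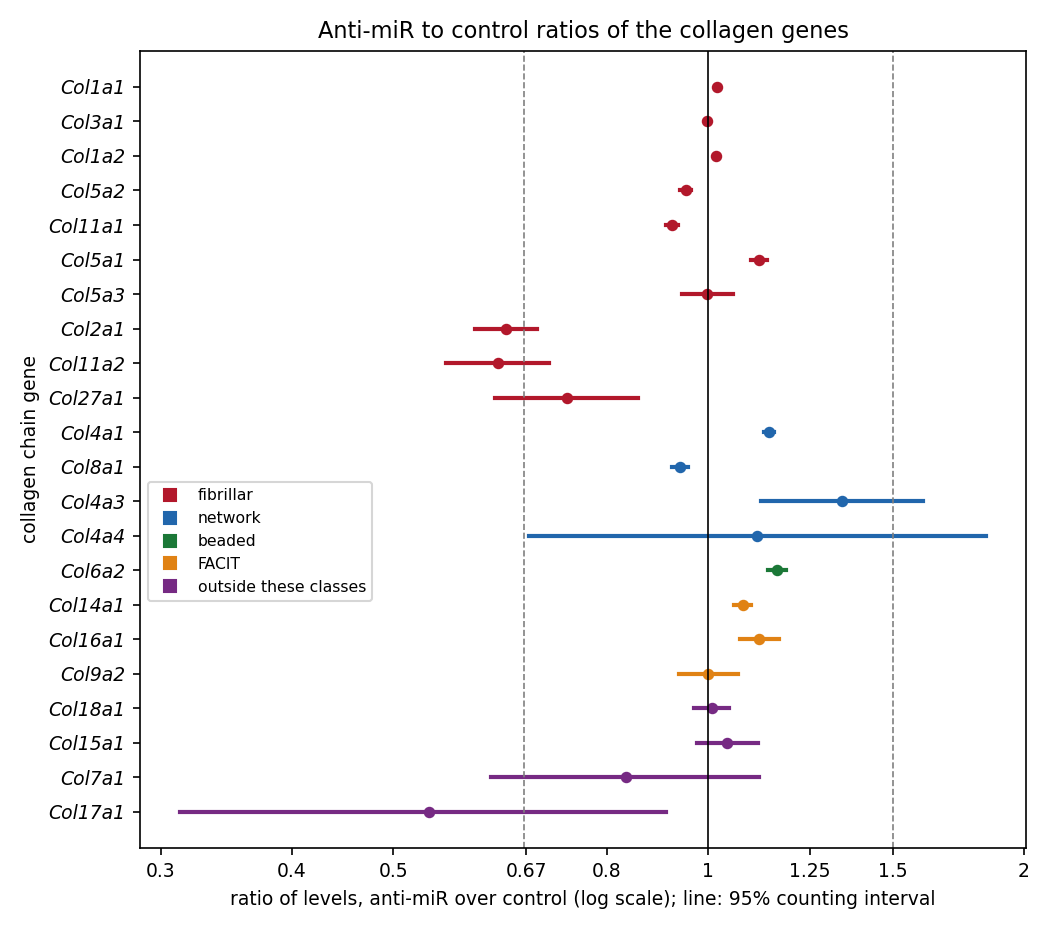
Ratio of levels, anti-miR over control, on a log axis for the 22 collagen genes, coloured by class. Points are ratios of 1 library each, lines are exact 95% counting intervals, and dashed lines mark 1.5-fold in either direction. Col2a1, Col11a2 and Col17a1 lie below the lower dashed line, and the interval of each reaches above it.

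Network collagens included the highest ratio among all members. Col4a1 (chromosome 16, 83045183 to 83157835), a chain of the common basement membrane collagen, had 3658 RPM (3628 to 3688) and 4180 RPM (4147 to 4213), a ratio of 1.14 (1.13 to 1.16). Col8a1 (chromosome 11, 43604994 to 43733870), of the short-chain network collagen VIII found around vessels and in injured heart, went the other way. It had 1705 RPM (1685 to 1725) and 1602 RPM (1582 to 1622), a ratio of 0.940 (0.923 to 0.956). Per length, Col8a1 led the class with 702 and 660 RPKM, ahead of Col4a1 with 561 and 641.

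Col4a3 and Col4a4 encode chains of a specialised basement membrane collagen known from the kidney, and both were scarce. They lie on opposite strands of chromosome 9 with their starts facing each other across 567 bases. Col4a3 (81910656 to 82036998) had 229 and 284 reads, or 14.3 and 19.2 RPM, and its ratio of 1.34 (1.12 to 1.60) was the highest of the 22. Col4a4 (81866835 to 81910088) had 34 and 35 reads, a ratio of 1.11 (0.675 to 1.84), so these few reads could not resolve a difference. Its transcript in the table is only 1143 bases long, which limits the reads it can collect. The 4 network members had a median log2 ratio of 0.17, with 3 above 0 and 0 past 1.5-fold. Their summed level was 5379 and 5803 RPM, a ratio of 1.08 (1.07 to 1.09), and without Col4a1 it was 0.943 (0.927 to 0.960), so the direction of the class sum rests on Col4a1.

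The beaded class rests on a single expressed gene of the 2 measured, and Col6a1 and Col6a3 have no entry. Col6a2 (chromosome 20, 12436783 to 12464512), a chain of the microfibrillar collagen VI that links cells to the interstitial matrix, had 1152 RPM (1135 to 1169) and 1340 RPM (1322 to 1359). The ratio of 1.16 (1.14 to 1.19) was the highest among the 10 members above 1000 RPM, whose ratios ran from 0.923 to 1.16. Per length, Col6a2 stood at 323 and 375 RPKM, below Col11a1 in the control and above it in the anti-miR library, where Col11a1 had 324 after 351. Such a change of order was seen for 4 of the 231 member pairs.

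FACIT genes were equal or slightly higher in the anti-miR library. Col14a1 (chromosome 7, 91801534 to 92032966), of a collagen that binds fibrils through decorin and regulates their spacing, had 1430 and 1542 RPM, a ratio of 1.08 (1.06 to 1.10). Col16a1 (chromosome 5, 149072905 to 149126350), a minor fibril-associated chain, had 251 and 280 RPM, a ratio of 1.12 (1.07 to 1.17). With Col9a2 at 1.0, the median log2 ratio of the 3 was 0.11, and their summed level was 1802 and 1944 RPM, a ratio of 1.08 (1.06 to 1.10).

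Members outside these classes were low, apart from the multiplexins, collagens of basement membrane zones that carry glycosaminoglycan chains. Col18a1, whose end fragment is endostatin, had 336 and 339 RPM, a ratio of 1.01 (0.969 to 1.05). Col15a1 had 114 and 119 RPM, a ratio of 1.04 (0.976 to 1.11). Col7a1, of the anchoring fibrils of skin, had 109 and 84 reads, a ratio of 0.834 (0.620 to 1.12). These 3 intervals include 1. Col17a1 (chromosome 1, 253012167 to 253059385), a transmembrane collagen of epithelial hemidesmosomes, had 46 and 23 reads. At 2.87 RPM (2.10 to 3.83) and 1.55 RPM (0.984 to 2.33), its ratio of 0.541 (0.313 to 0.911) was the lowest of the 22. The epithelial keratin gene Krt19, an epicardial marker, had 32 and 7 reads, and 4 of the 5 measured epicardial markers had log2 ratios below 0, with a median of −0.29. Their sum was 143 and 147 RPM, a ratio of 1.02 (0.966 to 1.09). Aldh1a2, the most abundant and the only marker above 0, had a ratio of 1.27 (1.17 to 1.38). Without Aldh1a2 the sum was 75.6 and 60.9 RPM, a ratio of 0.806 (0.739 to 0.879). The intervals of Wt1 (0.641 to 1.15) and Msln (0.578 to 1.12) include 1, and those of Krt19 and Tbx18 do not. The defining epicardial marker, Upk3b, has no entry under this symbol. The part of epithelial cells in the Col17a1 value was not tested.

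More members differed beyond counting error than passed the fold rule. The counting interval of the ratio left out 1 for 15 of 22 members, 8 above and 7 below, and included 1 for Col3a1, Col5a3, Col4a4, Col9a2, Col18a1, Col15a1 and Col7a1. An exact binomial test of the reads, Benjamini-Hochberg adjusted over all 10365 genes at 0.05, likewise put 8 members higher and 7 lower. By the same test 31.7% of all genes were higher and 26.4% lower, so most genes above the floor differ beyond counting error, and the test compares these libraries and not the conditions.

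Ratios between chains of a collagen do not depend on how the libraries were scaled. Type I collagen is mostly built from a pair of alpha 1 chains and a single alpha 2 chain. Per length, Col1a1 stood at 1.80 times Col1a2 in both libraries (1.79 to 1.81 and 1.80 to 1.81), and the ratio of these ratios was 1.002 (Wald interval from counting, 0.997 to 1.01). Col3a1 stood at 0.653 and 0.640 of Col1a1, a ratio of 0.979 (0.974 to 0.984).

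The ratios of Col5a1 to Col5a2 and of Col11a1 to Col11a2 differed between libraries beyond counting error. Col5a1 stood at 0.503 (0.495 to 0.510) and 0.590 (0.581 to 0.600) of Col5a2, 1.17-fold apart (1.15 to 1.20). Col5a3 was a minor part in both, at 0.0498 and 0.0522 of Col5a2, a ratio of 1.05 whose interval (0.991 to 1.11) includes 1. Col11a1 exceeded Col11a2 39.4 times (36.8 to 42.2) and 57.8 times (52.8 to 63.3), a ratio of 1.47 (1.31 to 1.64).

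Further pairs were chosen after their values were seen and are a description. Col11a1 stood at 0.636 and 0.617 of Col5a2. Col2a1 stood at 0.00362 and 0.00228 of Col1a1, so type II message was a trace beside type I. Col11a2 stood at 0.289 (0.267 to 0.313) and 0.284 (0.255 to 0.315) of Col2a1, and Col9a2 at 1.35 and 2.11 times Col2a1.

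**Figure D4:**
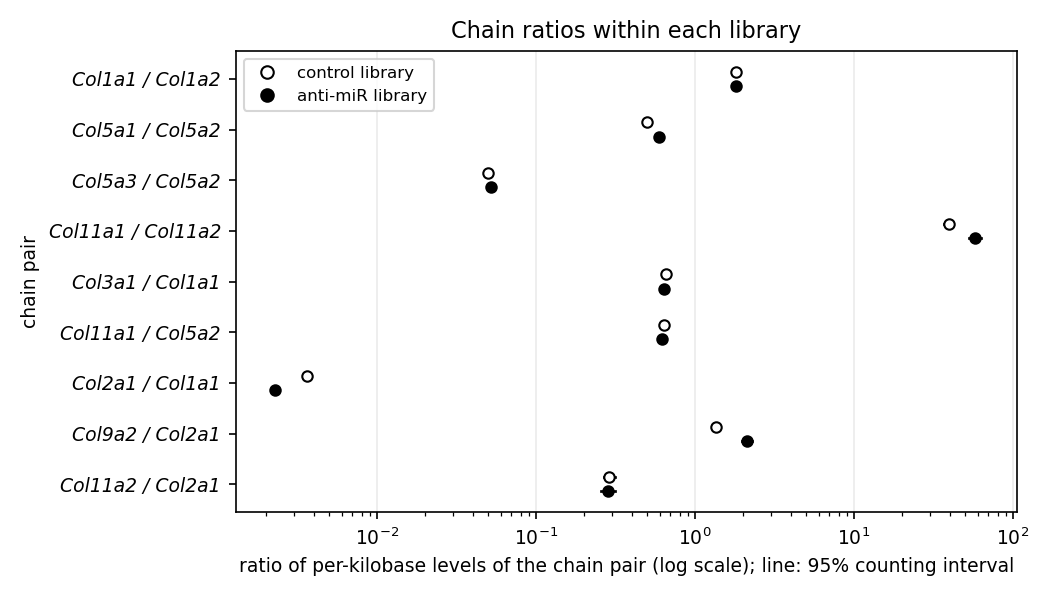
Ratio of per-kilobase levels between 2 collagen chains within each library, on a log axis. Shown are the 5 planned pairs with reads for both chains and 4 pairs added after their values were seen. The plan was made with earlier results of these data known. Open circles are the control and filled circles the anti-miR library, 1 library each, and lines are exact 95% counting intervals, mostly narrower than the points. The Col1a1 to Col1a2 ratio is 1.80 in both, and the Col11a1 to Col11a2 ratio is 39.4 and 57.8.

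Several collagen transcripts are commonly listed with let-7 seed matches in their 3′ untranslated regions. That list, of 9 genes from general knowledge, was not checked against sequence here, and 7 of its genes were measured. The highest log2 ratio was that of Col4a1, 0.19, followed by Col14a1 at 0.11, Col15a1 at 0.061 and Col1a2 at 0.024. Col3a1 at −0.0032, Col5a2 at −0.072 and Col27a1 at −0.45 lay below 0. Of the 7, 4 lay above 0 and 3 below, 0 were past 1.5-fold, and the median was 0.024. The 15 other members above the floor had a median of 0.00010, and all genes 0.027. By summed level the 7 genes had a ratio of 1.01 and the other members 1.02.

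Most genes that make, process, cross-link and bind collagen lay within 1.5-fold. Of a list of 40 symbols, 33 were measured and all had a mean of at least 1 RPM. Of these, 0 were at least 1.5-fold higher, beside 10.8% of all genes, and 3 were lower, beside 8.56%. Most of the 33 lie at 100 RPM or more, where 0.167% of all genes were higher and 0.781% lower. The 3 lower ones lie below 100 RPM, where 4.44% (10 to 100 RPM) and 24.7% (1 to 10 RPM) of all genes were lower. The median log2 ratio of the 33 was 0.022, with 20 genes above 0 and 13 below. The most abundant were Sparc, a collagen-binding matricellular protein, with 15529 and 15979 RPM, Serpinh1, the collagen chaperone of the endoplasmic reticulum, with 2549 and 2597, and P4hb, a prolyl hydroxylase subunit, with 2386 and 2379. Leprel1, a prolyl 3-hydroxylase, had the highest log2 ratio, 0.47, with 93 and 120 reads, a ratio of 1.40 (1.06 to 1.85). The lowest was that of Itga10, a collagen-binding integrin subunit of cartilage cells, with 107 and 23 reads, a ratio of 0.233 (0.141 to 0.368). The others past 1.5-fold, named after their values were seen, were the lysyl oxidase family gene Loxl4, at 24.7 and 14.7 RPM, and the procollagen protease gene Adamts3, with 69 and 37 reads.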

How the data were processed

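The deposited table gives a scaled read signal per gene for 2 libraries. Per the file headers, HOMER was run on exons of rn4 RefSeq genes, for reads of the minus orientation, and condensed to 1 transcript per gene. CASAVA 1.8.2, STAR 2.2.0c and HOMER are named per the submitters' processing notes. How multi-mapping reads were treated, which could matter for similar chains, is not given here.

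The deposited signal steps in multiples of 0.962 (control) and 1.04 (anti-miR). Within 0.005 units, 99.9% of nonzero control values and 100% of anti-miR values were whole, and 100% of those up to 400 reads in both. The recovered totals average 15423813, the total of the deposited signal in the control column, so each column was scaled by 1 factor. Transcript length is the deposited exonic length, another column of the authors' table.

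Ratios, intervals and counts were computed with scipy 1.17.1 and TMM factors with edgeR 4.0.16, and the scripts were tested on simulated data. Genes needed a mean of 1 RPM. The exact binomial test on recovered reads put 3282 of 10365 genes higher and 2736 lower. All members above the floor are named; of the collagen assembly list, the highest, the lowest and the 3 most abundant, plus 2 past 1.5-fold chosen after their values were seen. Members, classes and lists were chosen with earlier results of these data known. With 1 library per group, no test between the conditions was made. Alternatives were the floor, the pseudocount, the fold, the scaling and leaving out the top gene of a class.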

Additional observations from a re-analysis of the deposited data

How the results depend on the processing

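With 1 library per group, no replicate could be left out, and depth limits members below about 100 reads, whose intervals span 1.5-fold or more. No paired analysis was possible because each group has 1 library. No member was at least 1.5-fold higher under any floor, pseudocount, fold or scaling tried, but the exact binomial test, which compares the libraries only, put 8 higher and 7 lower. The count of lower members was 2 with a floor of 10 RPM, 4 with no floor and 0 with a fold of 2. Leaving out Col2a1 and Col11a2, an exclusion chosen after seeing the data, leaves 1 by construction. Scaling by the median of gene ratios and by TMM shifted every log2 ratio by −0.026 and −0.025. The fibrillar median became −0.063 and −0.062, the network median 0.146 and 0.146, and the let-7 listed median −0.0015 and −0.00049. Ratios of sums became 0.997 and 0.998 for all members, 0.992 and 0.992 for fibrillar, 1.06 and 1.06 for network, 1.06 and 1.06 for FACIT, 0.996 and 0.997 for let-7 listed and 1.01 and 1.01 for assembly genes. The sums of all members, of fibrillar and of let-7 listed genes therefore change side of 1, as does that of genes outside the classes (0.992 and 0.993), and the medians of all members (−0.020 and −0.019) and of assembly genes (−0.0039 and −0.0029) change sign, as does the let-7 listed one. Without Col2a1 and Col11a2 the fibrillar median was −0.0031. A floor of 10 RPM gave a median of 0.19 for network genes and 0.036 for those outside the classes, where no floor gave −0.26. A pseudocount of 1 RPM gave a network median of 0.15. Without the most abundant gene, ratios of sums were 1.01 for all members, 1.001 for fibrillar and 0.943 for network genes.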
